A study of Mus musculus with 12 samples.

Results

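Antigen presentation and immunoproteasome genes were followed in mouse liver, through 12 libraries of poly(A)-selected RNA. The set was a list of 10 gene symbols, each read as 1 row of the deposited count tables, out of 23420 rows in all. It held the class I heavy chains H2-K1 and H2-D1, their light chain B2m, the peptide transporter subunit Tap1, the immunoproteasome subunits Psmb8 and Psmb9, the class II chains H2-Aa, H2-Ab1 and H2-Eb1, and the invariant chain Cd74. All 10 were found and all 10 passed the filter on low counts in each comparison.

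The libraries fell into 4 groups of 3, all on the C57BL/6 background. The p62Δhep mice carried floxed Sqstm1 alleles and Cre recombinase under the albumin promoter, and p62F/F mice carried the floxed Sqstm1 alleles and no Cre. Tsc1/p62Δhep mice carried floxed alleles of Sqstm1 and of Tsc1 with the same Cre, and Tsc1Δhep mice carried floxed Tsc1 with that Cre. The protein of Sqstm1 is p62, which hands cargo to autophagy, and that of Tsc1 belongs to the complex that holds the kinase mTORC1 in check. The albumin promoter is known to act in hepatocytes, and whole-liver counts do not show in which cells the genes were lost. As p62F/F lacked Cre by its titles, effects of p62 loss and of Cre itself cannot be told apart in the first comparison, while both Tsc1-deleted groups carried Cre. The labels give no ages. Low-fat and high-fat feeding is mentioned in the design but tied to no sample, and nothing states that the 3 libraries of a group were different mice. The p-values therefore measure the spread between these libraries, which may be technical.

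Class I molecules, a heavy chain paired with B2m, display peptides from proteins made inside nearly every cell. These peptides are cut by the proteasome, whose catalytic subunits can be exchanged for immunoproteasome subunits under interferon, and are carried into the endoplasmic reticulum by the transporter of Tap1 and Tap2. Class II molecules display peptides from engulfed material and are made mainly by macrophages, dendritic cells and B cells, with the invariant chain as their chaperone. In liver, hepatocytes make class I, while class II is known mainly from Kupffer cells, recruited monocyte-derived cells and dendritic cells.

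Promoter windows were read from RefSeq for 8 of the 10 genes on mouse build GRCm38.p6, each 300 bases long, with 250 bases before and 50 after the start of the gene. H2-Ab1 and Cd74 were the genes without a window. The windows of H2-K1, B2m, H2-Aa and H2-Eb1 are shown because they set class I beside class II, the groups of genes that parted in the double-deleted livers. Capitals mark a TGANG followed after 19 to 21 bases by ATTGG, the spacing of the X2 and Y boxes of the SXY module that class I and class II promoters are known to share, and the core of an interferon response element (GAA or GAAA, any 2 bases, then GAAA); both strands were searched for each motif.
H2-K1 promoter, chr17:34000298-34000597, minus strand: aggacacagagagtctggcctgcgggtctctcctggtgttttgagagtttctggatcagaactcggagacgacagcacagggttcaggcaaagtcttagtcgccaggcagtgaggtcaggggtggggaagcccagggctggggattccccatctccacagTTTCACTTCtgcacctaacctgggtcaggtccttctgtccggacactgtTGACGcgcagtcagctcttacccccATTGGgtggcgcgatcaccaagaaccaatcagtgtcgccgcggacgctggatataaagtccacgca
B2m promoter, chr2:122147437-122147736, plus strand: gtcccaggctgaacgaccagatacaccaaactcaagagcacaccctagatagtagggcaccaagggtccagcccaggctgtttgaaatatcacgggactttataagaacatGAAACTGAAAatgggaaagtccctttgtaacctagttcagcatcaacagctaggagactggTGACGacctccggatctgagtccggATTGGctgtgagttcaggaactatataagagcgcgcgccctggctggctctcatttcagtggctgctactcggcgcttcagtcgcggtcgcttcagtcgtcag
H2-Aa promoter, chr17:34287774-34288073, minus strand: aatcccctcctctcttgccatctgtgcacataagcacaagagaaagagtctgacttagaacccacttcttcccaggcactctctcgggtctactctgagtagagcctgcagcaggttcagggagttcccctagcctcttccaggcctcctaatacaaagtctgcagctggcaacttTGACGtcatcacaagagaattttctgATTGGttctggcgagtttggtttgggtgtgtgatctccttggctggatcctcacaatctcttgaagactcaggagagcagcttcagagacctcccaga
H2-Eb1 promoter, chr17:34305617-34305916, plus strand: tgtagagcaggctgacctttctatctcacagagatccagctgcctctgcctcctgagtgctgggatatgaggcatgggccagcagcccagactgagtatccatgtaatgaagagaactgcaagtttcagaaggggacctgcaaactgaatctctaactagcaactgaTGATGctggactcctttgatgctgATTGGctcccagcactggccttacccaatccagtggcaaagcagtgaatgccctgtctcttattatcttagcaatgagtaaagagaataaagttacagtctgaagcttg
The spaced pair lay in 5 of the 8 windows, those of H2-K1, H2-D1, B2m, H2-Aa and H2-Eb1, and in 0.966% of 27025 promoters in the table. Its spacing was 20 bases in H2-K1, H2-D1 and B2m, 21 in H2-Aa and 19 in H2-Eb1. This pair was written down after these windows had been read, so its share among them is a description. The interferon core was found in H2-K1, H2-D1 and B2m, 3 of the 8 windows, and in 10.4% of all promoters. A TTCNNNGAA, the form of the gamma-activated site, was found in the window of Psmb8 and in 8.47% of all promoters. Tap1 and Psmb9 lie head to head, and their windows, chr17:34187306-34187605 on the plus strand and chr17:34187281-34187580 on the minus strand, overlap. A match is a stretch of letters and does not show binding in these livers.

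Total counts ranged between 15792048 and 33377247 per library, and the 10 genes held 0.218% to 0.555% of them. Sqstm1 checked the labels: the gene had 12.4 to 19.8 CPM (counts scaled to library size, TMM-adjusted within a table) in p62Δhep, against 316 to 351 in p62F/F, and 14.4 to 19.6 in Tsc1/p62Δhep, against 789 to 1210 in Tsc1Δhep. Tsc1 had 9.35 to 13.7 CPM in Tsc1/p62Δhep and 5.39 to 10.9 in Tsc1Δhep. Each pair of groups came in its own table, and Tsc1 status and table cannot be told apart, so levels across the tables are given without a test. The 10 hepatocyte markers summed to between 28561 CPM and 124746 CPM in every library. Tsc1Δhep library 1 stood apart: the Kupffer cell markers Clec4f, Vsig4, Cd5l, Marco and Timd4 summed to 0.347 CPM there, against 56.7 and 120 in Tsc1Δhep libraries 2 and 3. It differed from those libraries in markers of other cells as well. Stellate cell markers summed to 44.3 CPM in it, against 246 and 284, and cholangiocyte markers to 5240 CPM, against 2231 and 754. The hepatocyte marker Cyp2e1 had 108 counts in it, against 20451 and 26344.

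Per kilobase of transcript, on library totals, B2m had the highest level of the 10 genes in all 4 groups and H2-K1 the next. B2m reached 1369 ± 288 CPM per kilobase in p62Δhep and 1588 ± 252 in p62F/F (SD, n = 3 each). It reached 2332 ± 204 in Tsc1/p62Δhep and 3722 ± 141 in Tsc1Δhep (SD, n = 3 each). H2-K1 held a narrow range of group means, 687 ± 130 in p62Δhep, 760 ± 115 in p62F/F, 771 ± 148 in Tsc1/p62Δhep and 768 ± 68.0 in Tsc1Δhep (SD, n = 3 each).

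The third place was held by H2-D1 in p62Δhep, p62F/F and Tsc1/p62Δhep and by Cd74 in Tsc1Δhep. H2-D1 had 85.8 ± 6.88 CPM per kilobase in Tsc1/p62Δhep and 129 ± 22.5 in Tsc1Δhep (SD, n = 3 each). Cd74 had 20.9 ± 2.15 in Tsc1/p62Δhep and 161 ± 106 in Tsc1Δhep, where its libraries overlapped those of H2-D1. Class II chains, Psmb8, Psmb9 and Tap1 followed, and most neighbours in that order overlapped between libraries. Tap1 was the lowest of the 10 in p62Δhep, p62F/F and Tsc1Δhep, with 11.1 ± 4.49 CPM per kilobase in Tsc1Δhep, and H2-Eb1 the lowest in Tsc1/p62Δhep, with 5.31 ± 1.46.

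**Figure D1:**
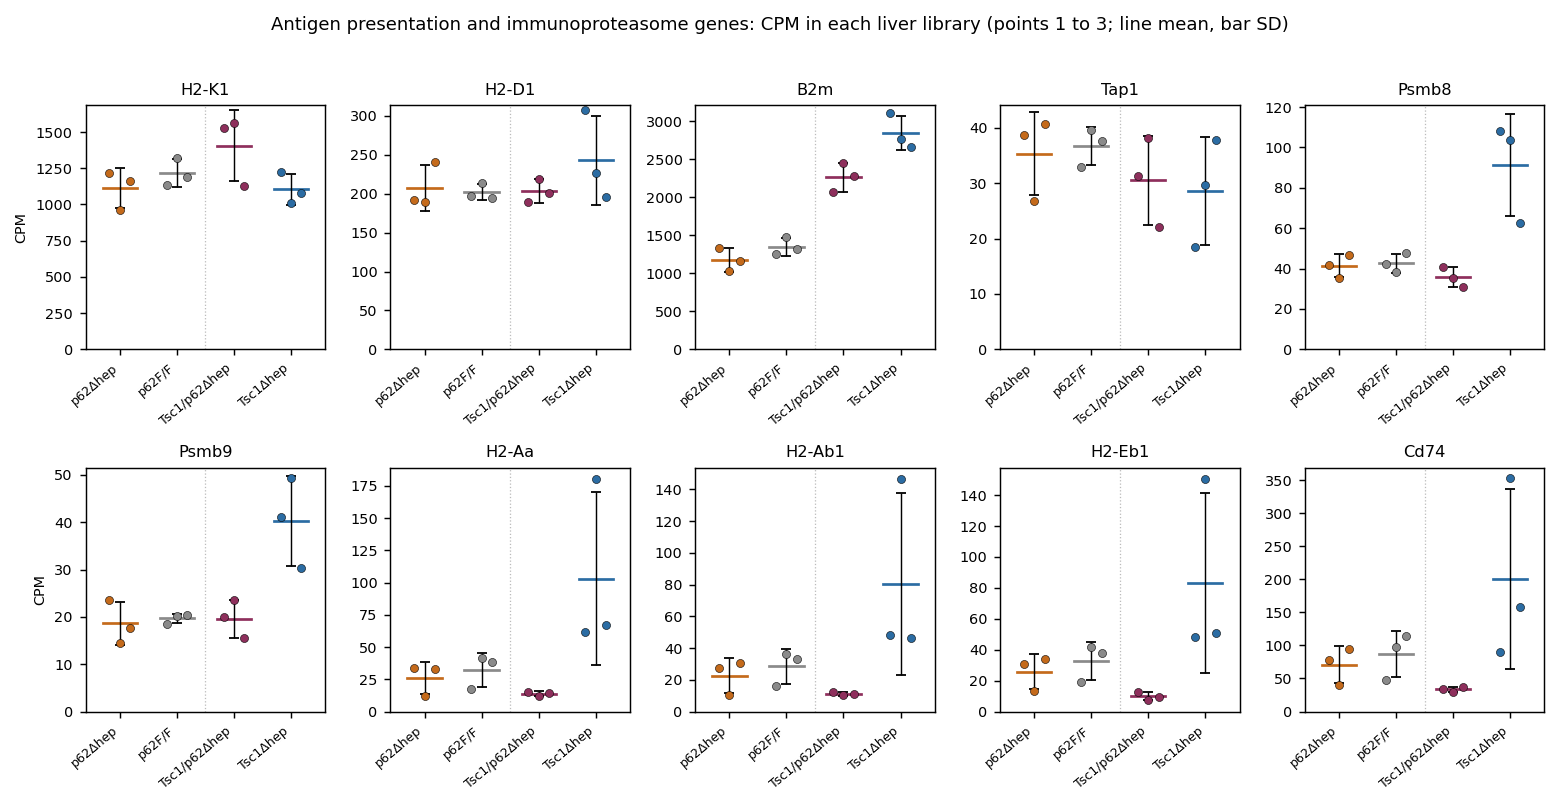
CPM of each of the 10 genes (vertical axes, from 0) in the 3 libraries of p62Δhep, p62F/F, Tsc1/p62Δhep and Tsc1Δhep; points are libraries, lines are means, bars are SD, and the dotted line parts the separately deposited tables. The 4 class II genes sit low and close together in Tsc1/p62Δhep and high and spread in Tsc1Δhep, with library 2 highest, while Tap1 overlaps between all groups.

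The first comparison, p62Δhep against p62F/F, asked what loss of p62 in otherwise intact hepatocytes did. None of the 10 genes was called by edgeR's quasi-likelihood test (adjusted p below 0.05), against 0.0159% of 12567 genes called in either direction. At an unadjusted p below 0.05, 0 of 10 passed, against 8.12% of all genes, and DESeq2 also called 0 of 10, against 1.36%. The libraries of both groups overlapped for each of the 10 genes, and they did not overlap for 12.8% of all genes. For 10 genes, counts of 0 lie near each of these shares, so they are no result about this set. Fitted log2 fold changes lay between -0.34 for H2-Eb1 and 0.04 for H2-D1, with adjusted p between 0.820 and 0.964 (edgeR).

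H2-K1, a classical class I heavy chain, had 1216, 959 and 1163 CPM in p62Δhep, against 1137, 1324 and 1187 CPM in p62F/F. B2m, the light chain needed by every class I heavy chain, had 1338, 1028 and 1160 CPM in p62Δhep, against 1250, 1478 and 1320 CPM in p62F/F. Psmb8, the immunoproteasome subunit that takes the place of Psmb5, had 41.7, 35.5 and 46.9 CPM in p62Δhep, against 42.0, 38.2 and 47.7 CPM in p62F/F. The groups overlapped in all 3 genes, over nearly the same range in Psmb8 and in part in H2-K1 and B2m, where the lowest and the highest p62Δhep library each lay below their p62F/F counterparts. In each gene p62Δhep library 2 was the lowest of its group.

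Class II varied more between libraries of a group than between the groups. H2-Aa, the α chain of the class II molecule I-A, had 34.0, 11.9 and 32.7 CPM in p62Δhep, against 17.5, 41.4 and 38.4 CPM in p62F/F. Cd74, the invariant chain that guards the class II groove until loading, had 77.3, 39.6 and 94.5 CPM in p62Δhep, against 47.3, 97.9 and 114 CPM in p62F/F. In both genes p62Δhep library 2 and p62F/F library 1 were low, and the other 4 libraries were high. The log2 fold change of H2-Aa was -0.31 ± 0.44 (SE, adjusted p = 0.887, edgeR). Without p62F/F library 1 it was -0.60, and its range over the fits that left out 1 library reached 0.04.

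The second comparison, Tsc1/p62Δhep against Tsc1Δhep, asked what loss of p62 did in hepatocytes without Tsc1. There 6 of the 10 genes fell and 0 rose (edgeR, adjusted p below 0.05), against 14.9% of 12620 genes lower and 9.25% higher. The 6 were the class II genes H2-Aa, H2-Ab1, H2-Eb1 and Cd74 and the immunoproteasome subunits Psmb8 and Psmb9. H2-K1, H2-D1, B2m and Tap1 did not pass. DESeq2 called the same number, 6 lower and 0 higher, against 18.8% lower and 14.1% higher. In 7 of the 10 genes every Tsc1/p62Δhep library lay below every Tsc1Δhep library, against 23.4% of all genes. The median log2 fold change was -1.20 over the 10 genes and -0.05 over all genes tested.

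H2-Aa had 15.3, 11.9 and 14.6 CPM in Tsc1/p62Δhep, against 61.7, 181 and 67.1 CPM in Tsc1Δhep. The highest double-deleted library lay below the lowest Tsc1Δhep library, and Tsc1Δhep library 2 stood far above the other two. Its level was 7.40-fold lower in Tsc1/p62Δhep (log2 fold change -2.89 ± 0.45 SE, adjusted p = 0.00540, edgeR). H2-Ab1, the β chain that pairs with H2-Aa, had 12.2, 10.1 and 11.0 CPM in Tsc1/p62Δhep, against 48.0, 147 and 46.1 CPM in Tsc1Δhep. The groups did not overlap and the same Tsc1Δhep library was the high one. The level was 7.25-fold lower in Tsc1/p62Δhep (log2 fold change -2.86 ± 0.49 SE, adjusted p = 0.00685, edgeR).

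H2-Eb1, the β chain of the class II molecule I-E, has no working α partner in C57BL/6 mice, and the row of that partner, H2-Ea-ps, held 0 counts in all 12 libraries. H2-Eb1 had 12.9, 7.67 and 9.41 CPM in Tsc1/p62Δhep, against 48.4, 151 and 51.0 CPM in Tsc1Δhep. Again the groups were apart and library 2 was the high one of Tsc1Δhep. The level was 8.34-fold lower in Tsc1/p62Δhep (log2 fold change -3.06 ± 0.50 SE, adjusted p = 0.00620, edgeR). Cd74 had 34.3, 29.0 and 36.7 CPM in Tsc1/p62Δhep, against 90.3, 352 and 159 CPM in Tsc1Δhep. The groups did not overlap, and the level was 6.01-fold lower in Tsc1/p62Δhep (log2 fold change -2.59 ± 0.48 SE, adjusted p = 0.00936, edgeR).

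Without Tsc1Δhep library 2 the log2 fold changes of the class II genes were -2.21 for H2-Aa, -2.08 for H2-Ab1, -2.31 for H2-Eb1 and -1.91 for Cd74, and all 4 stayed past the threshold. H2-Aa, H2-Ab1 and H2-Eb1 passed in each of the 6 fits that left out 1 library. Cd74 missed it without Tsc1/p62Δhep library 1 (adjusted p = 0.0513) and without Tsc1/p62Δhep library 2 (adjusted p = 0.0506, edgeR). The class II chains moved together, though not in fixed proportions: the ratio of H2-Aa to H2-Ab1 counts was 1.26, 1.18 and 1.32 in Tsc1/p62Δhep and 1.28, 1.23 and 1.45 in Tsc1Δhep. The ratio of H2-Eb1 to H2-Ab1 counts was 1.06, 0.760 and 0.853 in Tsc1/p62Δhep and 1.01, 1.03 and 1.10 in Tsc1Δhep, and both ratios overlapped between the groups.

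Other class II pathway genes fell as well. Of 18 listed, 11 were tested and 6 were lower, 0 higher, against 14.9% of all genes lower and 9.25% higher. The median log2 fold change was -2.30 over those tested. Ciita and Cd86 reached the filter on low counts through Tsc1Δhep alone, which leaves 4 of the 6 that reached it in both groups. The median of -2.30 includes both genes and was not taken without them. Ciita, the transactivator required for class II transcription, had 0.565, 0.524 and 0.195 CPM in Tsc1/p62Δhep, against 0.996, 4.66 and 3.61 CPM in Tsc1Δhep. The groups did not overlap at these low levels, 3 to 8 counts per library in Tsc1/p62Δhep. H2-DMa and H2-DMb1, the chains of the molecule that loads peptides on class II, had log2 fold changes of -2.40 ± 0.56 and -2.85 ± 0.54 (SE). Ctss, the protease that trims the invariant chain, averaged 15.0 ± 1.77 CPM in Tsc1/p62Δhep and 85.1 ± 31.7 CPM in Tsc1Δhep (SD, n = 3 each), a log2 fold change of -2.51 ± 0.33 (SE). Ifi30, a thiol reductase of the loading compartment, had a log2 fold change of -2.30, and Cd86, a costimulatory ligand, averaged 0.774 ± 0.242 CPM in Tsc1/p62Δhep and 4.46 ± 1.38 CPM in Tsc1Δhep (SD, n = 3 each).

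The count of 6 of 11 tested was 3 of 15 without Tsc1/p62Δhep library 2 and 4 of 15 without Tsc1/p62Δhep library 1. It was 4 of 11 without Tsc1Δhep library 2 and 9 of 14 without Tsc1Δhep library 1. The filter on low counts was run anew in each fit, so the genes tested differed. Through which group the added genes reached it was not examined. Rfx5, Rfxap and Rfxank, the subunits of the factor that binds the X box, did not pass, with log2 fold changes of -0.10 ± 0.38, 0.52 ± 0.26 and -0.14 ± 0.29 (SE).

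Markers of cells that carry class II moved in the same comparison. Of 15 macrophage and Kupffer cell markers tested, 10 were lower and 0 higher in Tsc1/p62Δhep, against 14.9% of all genes lower and 9.25% higher. Among the 10 were Cd68, Emr1, Csf1r, Lyz2, Ccr2 and Cx3cr1. The 15 summed to 150 to 176 CPM in Tsc1/p62Δhep and to 402 to 586 CPM in Tsc1Δhep, and none was at 0 in every library of a group. Ccr2 and Cx3cr1, chemokine receptors of monocytes and cells derived from them, summed to 1.84, 1.44 and 1.56 CPM in Tsc1/p62Δhep, against 20.6, 50.1 and 19.6 CPM in Tsc1Δhep. Tsc1Δhep library 2 was the highest in this sum, as in the class II genes. The pair was picked from the 15 markers after their values were seen, so this likeness is a description. The resident Kupffer cell markers Clec4f, Vsig4, Cd5l, Marco and Timd4 summed to 83.0, 65.9 and 72.0 CPM in Tsc1/p62Δhep, against 0.347, 56.7 and 120 CPM in Tsc1Δhep. These sums overlapped, and none of the 5 passed the test. The same 10 markers were lower in each of the 6 fits that left out 1 library, and Marco was higher without Tsc1Δhep library 1. Of the 10, Cx3cr1 and Itgam reached the filter on low counts through Tsc1Δhep alone. In the fit of all 6 libraries, Clec4f, Vsig4, Cd5l, Marco and Timd4 reached it through Tsc1/p62Δhep alone.

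Of 10 dendritic cell markers 4 were tested and 1 was lower, the integrin chain Itgax, which reached the filter through Tsc1Δhep alone, with 0.541 ± 0.260 CPM in Tsc1/p62Δhep and 5.72 ± 3.00 CPM in Tsc1Δhep (SD, n = 3 each). The 10 summed to 5.78 to 8.90 CPM in Tsc1/p62Δhep and to 16.2 to 34.0 CPM in Tsc1Δhep, and none was at 0 in every library of a group. In Tsc1Δhep library 1, Cd83 had the most counts of the 10, 235, and Itgax the next most, 76. Clec9a had 2 counts there, Xcr1 1 and Siglech 0. The 8 B cell and plasma cell markers summed to 10.1 to 21.3 CPM in Tsc1/p62Δhep and to 5.42 to 13.3 CPM in Tsc1Δhep, and 0 of the 4 tested passed (edgeR; 1 at an unadjusted p below 0.05, 1 higher by DESeq2). Among these 8 markers, Igj had the most counts in each library of both groups. Of the other marker lists, 3 of 8 stellate cell, 2 of 5 tested cholangiocyte and 1 of 8 endothelial markers were lower, against 14.9% of all genes. Of 7 neutrophil markers 3 were tested, each through Tsc1Δhep alone, and their calls are not counted. The part of these cells in the class II result was not tested, and in whole liver fewer cells of a type and less RNA per cell cannot be told apart. Set against Cd68, a macrophage lysosomal protein, H2-Ab1 counts gave ratios of 4.78, 3.76 and 2.98 in Tsc1/p62Δhep, against 2.02, 9.09 and 1.86 in Tsc1Δhep, which overlapped. Set against Emr1, which encodes the F4/80 antigen, the ratios were 2.42, 1.93 and 2.74 in Tsc1/p62Δhep, against 4.72, 9.03 and 2.58 in Tsc1Δhep, which overlapped in 1 library of each group.

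**Figure D2:**
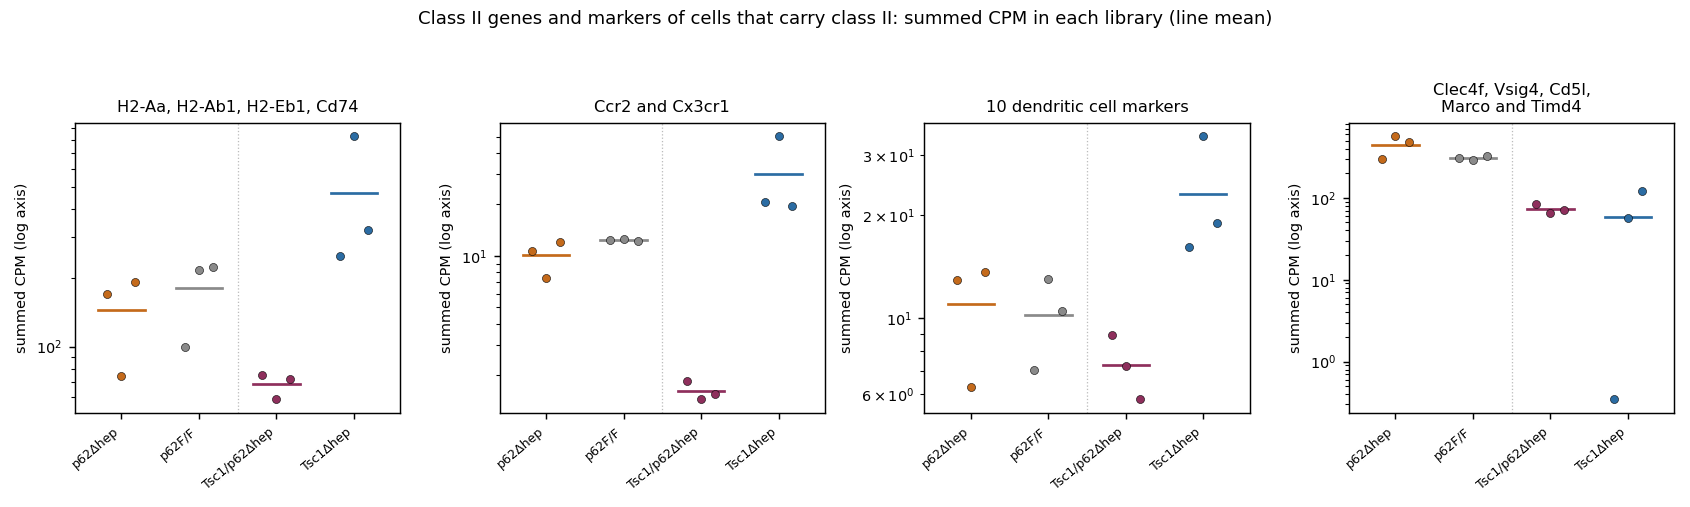
Summed CPM (vertical axes, log scale) of the 4 class II genes, of Ccr2 and Cx3cr1, of 10 dendritic cell markers and of 5 resident Kupffer cell markers in each library of the 4 groups; points are libraries and lines are means. The class II sum and the Ccr2 and Cx3cr1 sum are lower in every Tsc1/p62Δhep library than in any Tsc1Δhep library. Both sums are highest in Tsc1Δhep library 2, and the pair was picked after its values were seen. The Kupffer cell sum is at 0.347 CPM in Tsc1Δhep library 1 and otherwise overlaps between Tsc1/p62Δhep and Tsc1Δhep.

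The class I chains and the transporter did not pass the test in the Tsc1-deleted livers. H2-K1 had 1527, 1564 and 1124 CPM in Tsc1/p62Δhep, against 1223, 1010 and 1081 CPM in Tsc1Δhep, so 2 double-deleted libraries lay above all of Tsc1Δhep and 1 lay within it. Its log2 fold change was 0.35 ± 0.24 (SE, adjusted p = 0.311, edgeR). H2-D1, the other classical heavy chain, had 190, 219 and 201 CPM in Tsc1/p62Δhep, against 307, 226 and 196 CPM in Tsc1Δhep, with overlap (log2 fold change -0.26 ± 0.24 SE, adjusted p = 0.447, edgeR). B2m had 2064, 2447 and 2280 CPM in Tsc1/p62Δhep, against 3102, 2770 and 2666 CPM in Tsc1Δhep. Its groups did not overlap, yet the log2 fold change of -0.33 ± 0.22 missed the threshold (SE, adjusted p = 0.300, edgeR). These class I values depend on the scaling, with TMM factors of 0.897, 0.898 and 0.865 in Tsc1/p62Δhep and 1.06, 1.11 and 1.22 in Tsc1Δhep. On library totals alone, B2m averaged 2006 ± 175 CPM in Tsc1/p62Δhep and 3201 ± 121 in Tsc1Δhep (SD, n = 3 each). H2-K1 averaged 1248 ± 240 and 1244 ± 110 CPM in the same order.

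The ratio of H2-K1 to B2m counts within a library was 0.740, 0.639 and 0.493 in Tsc1/p62Δhep, against 0.394, 0.365 and 0.405 in Tsc1Δhep, with no overlap. Ratios are given as descriptions and were not tested. Tap1 had 31.4, 38.1 and 22.1 CPM in Tsc1/p62Δhep, against 18.4, 29.7 and 37.8 CPM in Tsc1Δhep. Both groups spanned nearly the same range (log2 fold change 0.09 ± 0.32 SE, adjusted p = 0.849, edgeR).

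The immunoproteasome subunits fell. Psmb8 had 40.7, 35.5 and 31.1 CPM in Tsc1/p62Δhep, against 108, 104 and 62.4 CPM in Tsc1Δhep. All 3 double-deleted libraries lay below the lowest Tsc1Δhep library, a 2.55-fold lower level (log2 fold change -1.35 ± 0.27 SE, adjusted p = 0.0112, edgeR). Psmb9, which takes the place of Psmb6, had 19.9, 23.5 and 15.5 CPM in Tsc1/p62Δhep, against 41.0, 49.3 and 30.4 CPM in Tsc1Δhep. The groups did not overlap, and the level was 2.05-fold lower (log2 fold change -1.04 ± 0.26 SE, adjusted p = 0.0275, edgeR). Psmb8 missed the threshold without Tsc1/p62Δhep library 2 (adjusted p = 0.0624) and without Tsc1/p62Δhep library 3 (adjusted p = 0.0508, edgeR). Psmb9 missed it without any 1 of the Tsc1/p62Δhep libraries and without Tsc1Δhep library 2, with adjusted p of 0.0701 to 0.110 (edgeR).

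Psmb10, the third immunoproteasome subunit, averaged 27.3 ± 2.32 CPM in Tsc1/p62Δhep and 35.3 ± 4.33 CPM in Tsc1Δhep (SD, n = 3 each) and did not pass (log2 fold change -0.37 ± 0.20 SE, adjusted p = 0.194, edgeR). The groups did not overlap in this gene. None of 14 constitutive core proteasome genes was called (edgeR), against 1 at an unadjusted p below 0.05, where all genes had 39.7%, and 1 lower by DESeq2. Their median log2 fold change was -0.39, 12 of 14 were negative, and without Tsc1Δhep library 3 the number called lower was 7. Psmb5, the constitutive counterpart of Psmb8, had a log2 fold change of -0.29 ± 0.23 (SE), Psmb6 of -0.56 ± 0.29 and Psmb7, the counterpart of Psmb10, of -0.29 ± 0.29.

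The ratio of Psmb8 to Psmb5 counts was 1.57, 1.20 and 0.964 in Tsc1/p62Δhep, against 2.76, 2.52 and 2.30 in Tsc1Δhep, with no overlap. The ratio of Psmb9 to Psmb6 counts was 0.207, 0.230 and 0.136 in Tsc1/p62Δhep, against 0.212, 0.290 and 0.317 in Tsc1Δhep, and here the libraries overlapped. Psmb10 to Psmb7 ratios were 0.182, 0.165 and 0.157 in Tsc1/p62Δhep, against 0.134, 0.197 and 0.241 in Tsc1Δhep, also with overlap.

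**Figure D3:**
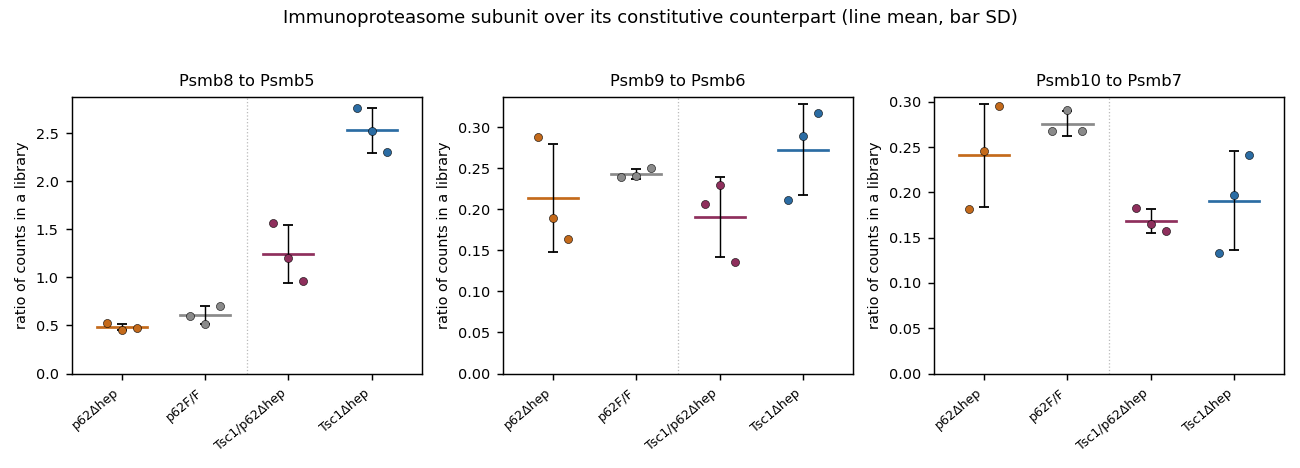
Counts of an immunoproteasome subunit divided by counts of the constitutive subunit it replaces (vertical axes, from 0) in each library of p62Δhep, p62F/F, Tsc1/p62Δhep and Tsc1Δhep; points are libraries, lines are means and bars are SD. Only the ratio of Psmb8 to Psmb5 is apart between Tsc1/p62Δhep and Tsc1Δhep among the 3 ratios plotted.

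Of 25 other class I pathway genes listed, 22 were tested, 2 were higher and 1 lower in Tsc1/p62Δhep, against 9.25% of all genes higher and 14.9% lower, so the list's calls were near or below that background. Its median log2 fold change was -0.40. H2-Q10, a secreted class I molecule made by hepatocytes, had 2073, 2195 and 2057 CPM in Tsc1/p62Δhep, against 467, 598 and 860 CPM in Tsc1Δhep. The groups were far apart, and the level was 3.29-fold higher in Tsc1/p62Δhep (log2 fold change 1.72 ± 0.29 SE, adjusted p = 0.00651, edgeR). Erap1, the aminopeptidase that trims class I peptides, averaged 137 ± 15.2 CPM in Tsc1/p62Δhep and 59.6 ± 30.1 CPM in Tsc1Δhep (SD, n = 3 each), a log2 fold change of 1.20 ± 0.35 (SE, adjusted p = 0.0441, edgeR). H2-Q2, a nonclassical heavy chain, was the lower one, with 0.160 ± 0.145 CPM in Tsc1/p62Δhep and 5.46 ± 4.03 CPM in Tsc1Δhep (SD, n = 3 each). It reached the filter on low counts through Tsc1Δhep alone, so its call was close to fixed by the filter.

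The number higher was 1 without any 1 library other than Tsc1Δhep library 3, and without that library 4 were higher and 5 lower. The number lower was 3 without Tsc1Δhep library 1.

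Beside these, 5 of the 10 hepatocyte markers rose in Tsc1/p62Δhep and 0 fell, against 9.25% of all genes higher and 14.9% lower. Ass1, among those that rose, reached the filter on low counts through Tsc1/p62Δhep alone. It had 28, 19 and 12 counts there, against 8, 12 and 7 in Tsc1Δhep. The 10 markers summed to 93759 to 124746 CPM in Tsc1/p62Δhep and to 28561 to 61818 CPM in Tsc1Δhep. The part of hepatocyte RNA in the rise of H2-Q10 and Erap1 was not tested. Tap2, the partner of Tap1, had a log2 fold change of -0.79 ± 0.30, Tapbp, which holds class I at the transporter, of -0.33 ± 0.23, and the proteasome activator subunits Psme1 and Psme2 of -0.20 ± 0.28 and -0.34 ± 0.24 (SE). Nlrc5, the transactivator of class I genes, had 0.54 ± 0.33 (SE). None of these 5 passed. Class I heavy chain genes are near-identical copies: H2-Q6 and H2-Q7 held 0 counts in all libraries, and no source used here says how reads shared between copies were counted, so heavy chain values are uncertain to that extent.

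Both interferon lists were read, since interferons raise most of the 10 genes. Of 22 interferon gamma response genes, 20 were tested. Igtp, an interferon-induced GTPase, was higher, Ifngr1, a receptor chain for interferon gamma, and the chemokine Cxcl10 were lower, against 9.25% of all genes higher and 14.9% lower, and the median log2 fold change was -0.34. Without Tsc1/p62Δhep library 1 or 2 none of the 20 was called, without Tsc1Δhep library 2 only 1 was, which was lower, and without Tsc1/p62Δhep library 3 there were 2 higher and 1 lower. Without Tsc1Δhep library 1 or 3 there were 1 higher and 3 lower. Irf1, a transcription factor induced by interferon gamma, had a log2 fold change of -0.31 ± 0.20 (SE) and did not pass the threshold. Ifng itself had 0 counts in Tsc1/p62Δhep and averaged 0.0963 ± 0.0111 CPM in Tsc1Δhep (SD, n = 3), too low to be tested.

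Of 19 type I interferon response genes, all tested, 10 were lower and 0 higher, against 14.9% of all genes lower and 9.25% higher. The median log2 fold change was -1.38, and 9 of the 10 reached the filter in both groups, Mx1 being the exception. The 5 with the smallest p were Ifit2, Mx1, Oas1a, Ifit3 and Isg15, antiviral effectors, with log2 fold changes of -3.30, -3.05, -3.28, -1.66 and -2.20. Ifit2 averaged 3.11 ± 0.201 CPM in Tsc1/p62Δhep and 30.6 ± 14.8 CPM in Tsc1Δhep (SD, n = 3 each). The count of 10 was 2 without Tsc1/p62Δhep library 1, and 7 to 10 without any other library.

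**Figure D4:**
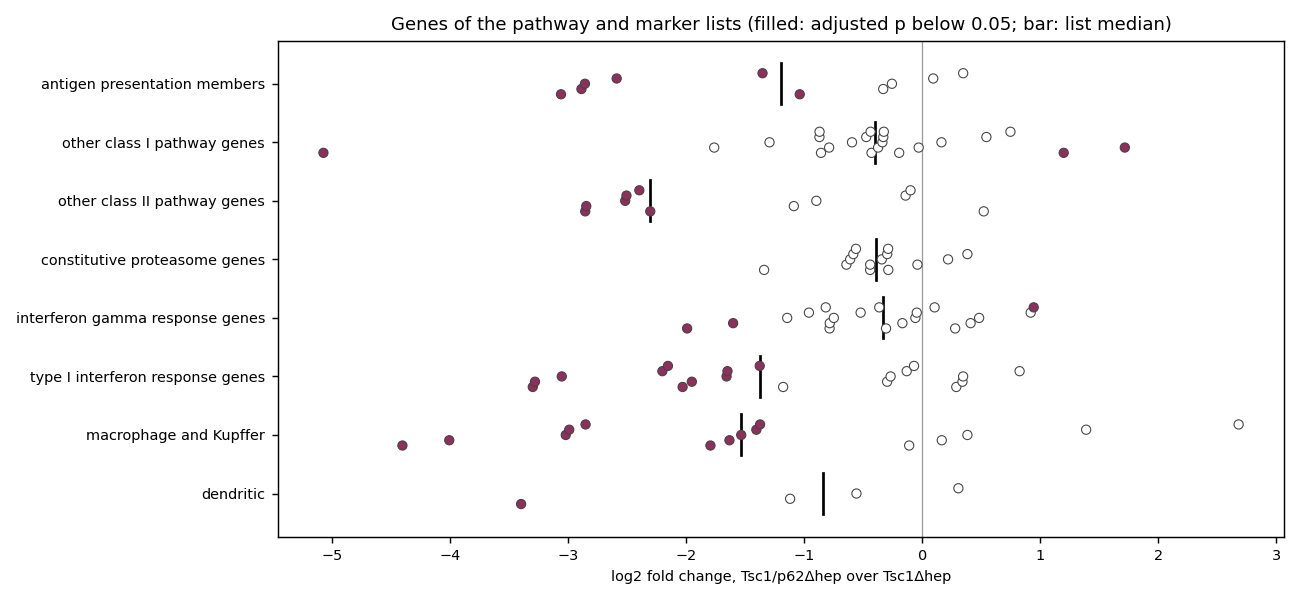
Fitted log2 fold change of Tsc1/p62Δhep over Tsc1Δhep (horizontal axis) for each tested gene of the 10 genes, of the pathway lists and of the macrophage and dendritic cell marker lists; each point is a gene, filled points passed an adjusted p of 0.05 and black bars are list medians. The other class II genes have a median of -2.30 and the other class I genes one of -0.40. Both medians include genes that reached the filter on low counts through Tsc1Δhep alone, Ciita and Cd86 in class II and H2-Q2 in class I.

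In p62Δhep against p62F/F, edgeR called 0 genes of these 5 lists. At an unadjusted p below 0.05 there were 2 of 22 other class I genes, 1 of 14 other class II genes, 0 of 14 constitutive proteasome genes and 1 of 21 interferon gamma response genes, against 8.12% of all genes, and DESeq2 called 0 in each. All 14 constitutive proteasome genes had a positive log2 fold change there, with a median of 0.12. Type I interferon response genes were different in this respect: 13 of 19 had an unadjusted p below 0.05, 17 of 19 had a negative log2 fold change, the median was -0.41, and DESeq2 called 2 lower. Irf7, the factor that amplifies the type I interferon response, had 33.7 ± 4.38 CPM in p62Δhep and 56.1 ± 5.37 CPM in p62F/F (SD, n = 3 each; log2 fold change -0.73 ± 0.13 SE, adjusted p = 0.252, edgeR). The macrophage and Kupffer markers had a positive median in that comparison, 0.36, and summed to 622 to 984 CPM in p62Δhep and 596 to 666 CPM in p62F/F.

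The difference of the p62 effect between the Tsc1-deleted and the Tsc1-intact livers was tested as an interaction in a model of all 12 libraries. It was negative and past the threshold for 5 of the 10 genes, against 9.32% of 13231 genes lower and 6.76% higher. Psmb8 had a difference of -1.32 ± 0.30 on the log2 scale (SE, adjusted p = 0.0149, edgeR). H2-Aa had -2.60 ± 0.69 (adjusted p = 0.0254), H2-Ab1 -2.55 ± 0.71 (0.0315), H2-Eb1 -2.73 ± 0.70 (0.0220) and Cd74 -2.31 ± 0.67 (0.0379). Psmb9 had -0.97 ± 0.33 with an adjusted p of 0.0628 by edgeR and 0.0404 by DESeq2, which called 6 of the 10 lower, against 12.7% of all genes. H2-K1, H2-D1, B2m and Tap1 had differences of 0.47, -0.30, -0.14 and 0.14, with adjusted p of 0.280 to 0.836 (edgeR).

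Psmb8 passed in all 12 fits that left out 1 library, with adjusted p up to 0.0454 (edgeR). H2-Eb1 missed the threshold in 3 of the 12, H2-Aa in 6, Cd74 in 8 and H2-Ab1 in 9. The number past the threshold was 1 without p62Δhep library 3, p62F/F library 1 or Tsc1/p62Δhep library 2. It was 2 without p62Δhep library 1, Tsc1/p62Δhep library 1 or Tsc1Δhep library 2, and 3 without p62F/F library 2 or Tsc1/p62Δhep library 3.

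**Figure D5:**
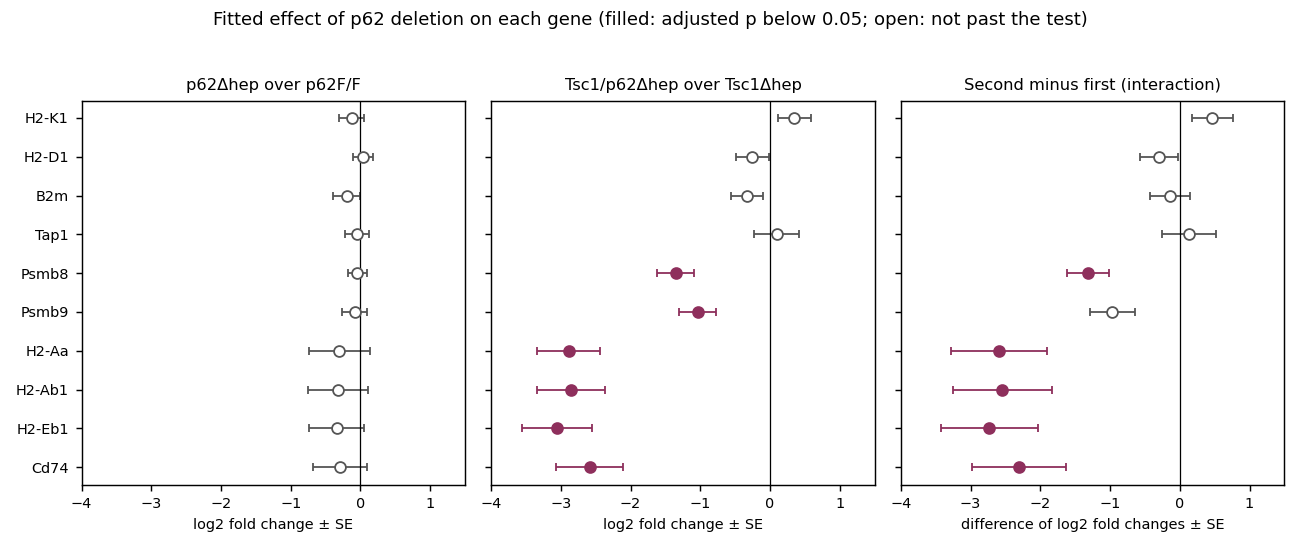
Log2 fold change ± SE (horizontal axes) of the 10 genes in p62Δhep over p62F/F, in Tsc1/p62Δhep over Tsc1Δhep, and the difference of the second and the first; filled points passed an adjusted p of 0.05. In the first panel all 10 genes lie between -0.34 and 0.04, and in the second the 4 class II genes lie between -3.06 and -2.59.

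The genes whose library-to-library pattern was most like that of the class II genes were ranked among 10981 genes by Pearson correlation over the 12 libraries, after each table's mean had been taken off. Sema4d had r = 0.989, H2-DMb1 0.981, Ppic 0.970, Itgax 0.957 and Cx3cr1 0.947. These points share library scaling and the same high library, Tsc1Δhep library 2. Group means were not taken off, so the difference between Tsc1/p62Δhep and Tsc1Δhep is part of every r given here. Itgax and Cx3cr1 reached the filter on low counts through Tsc1Δhep alone in that comparison. Each of the 4 class II genes followed the mean of the other 3 with r between 0.981 and 0.997. The 6 class I and processing genes were less alike: against the mean of the other 5, r was -0.16 for H2-K1, -0.06 for Tap1, 0.49 for H2-D1, 0.62 for Psmb8, 0.76 for B2m and 0.86 for Psmb9. The genes most like their mean were Ifi35, Vezt, Tmem51, Det1 and Usp18, with r between 0.917 and 0.950.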

How the data were processed

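Liver RNA of 12 libraries was analysed from 2 deposited tables of gene counts, 1 with p62Δhep and p62F/F and 1 with Tsc1/p62Δhep and Tsc1Δhep, 6 libraries each. The authors' deposited values were whole numbers with differing totals and were taken as counts with no normalization. Per the labels' protocols, RNA was extracted with Trizol from frozen liver, poly(A) selected and made into strand-directed libraries, sequenced single-end with 75 nucleotides or paired-end; which library had which is not given. Symbols are those of mouse, although hg19, a human build, is the build in the submitters' processing notes. Aligner, counting tool, annotation and use of strand were not given in the sources used here. In the name of the deposited Tsc1 table stands the word NORMAL, unexplained.

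The 10 members and all gene lists were chosen with earlier results of these data known. Groups and replicate numbers came from the titles. Genes were kept with filterByExpr (at least 10 counts per group's libraries after scaling, 15 in total), scaled by TMM (factors 0.865 to 1.22) and tested with edgeR 4.0.16 (R 4.3.3) by the quasi-likelihood test with Benjamini-Hochberg adjustment over all genes, on the 6 libraries of a table. The interaction used all 12. A shift common to all libraries of 1 table drops out there, an effect of Cre does not. Levels per kilobase used library totals and the longest coding transcript of GENCODE M21. Alternatives were DESeq2 1.42.0, limma 3.58.1 on log2(CPM + 1), RLE and upper-quartile scaling, no filter, a replicate block, 1 fit of all 12 libraries, and leaving out each library; list counts without each library were added after seeing the data. The fits were tested on simulated data. Replicate libraries differed by a chi-square of 36.2 to 325 per gene, so none was a copy of another. The rule for named genes took the 10 members, Sqstm1, Tsc1, up to 5 called genes with the smallest p of each list, 14 pathway genes always (1 of them is not reported here), and the 5 most similar genes; others named with a value, such as Irf7, H2-Q6, the Rfx subunits and the marker genes, were chosen after their values were seen.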

Additional observations from a re-analysis of the deposited data

Results flagged for a closer look

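The interaction test across all genes called 2127 of 13231 (edgeR's quasi-likelihood test, adjusted p below 0.05), a p62 effect that differed between Tsc1-deleted and Tsc1-intact livers. The 20 given here are those among the 10 members and the pathway lists. Of the 15 macrophage and Kupffer cell markers, 10 were called lower as well, against 9.32% of all genes. Values are differences of log2 fold changes, Tsc1/p62Δhep over Tsc1Δhep minus p62Δhep over p62F/F.

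Among the class II chains and the invariant chain the differences were -2.60 for H2-Aa, -2.55 for H2-Ab1, -2.73 for H2-Eb1 and -2.31 for Cd74. Of their pathway, Ciita had -2.75, H2-DMa -2.56, H2-DMb1 -2.77, Ctss -2.85, Ifi30 -2.59 and Cd86 -2.49. The immunoproteasome subunit Psmb8 had -1.32.

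On the class I side the difference was 1.71 for H2-Q10, 1.28 for Erap1, -1.15 for Calr, a chaperone of class I assembly, and -4.43 for H2-Q2. H2-Q2 had only 4, 3 and 0 counts in the Tsc1/p62Δhep libraries. In Tsc1/p62Δhep against Tsc1Δhep it reached the filter on low counts through Tsc1Δhep alone, as did Ciita, Cd86 and Mx1. Calr averaged 675 ± 75.2 CPM in Tsc1/p62Δhep and 1019 ± 229 CPM in Tsc1Δhep, and 1866 ± 397 CPM in p62Δhep and 1279 ± 217 CPM in p62F/F (SD, n = 3 each), and neither comparison called it alone.

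Of the type I interferon response genes, Ifit2 had -2.58, Mx1 -3.0, Oas1a -2.65, Isg15 -1.75 and Oasl2 -1.52. By titles only p62F/F lacked Cre, so in all these differences the first comparison holds Cre and p62 together, and these cannot be told apart.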

How the results depend on the processing

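Upper-quartile scaling turned the log2 fold change of Tap1 in Tsc1/p62Δhep against Tsc1Δhep to -0.012; in that scaling the median of all genes was -0.15 (-0.05 with TMM) and 940 genes were higher and 2134 lower, against 1167 and 1886. Genes called in p62Δhep against p62F/F numbered 2, but 171 by DESeq2 (33 higher, 138 lower), 4 by limma, and 1 with the 12-library fit. In Tsc1/p62Δhep against Tsc1Δhep the 12-library fit called 5201, against 3053. Replicate numbers did not pair libraries: same-numbered libraries correlated with r of -0.42, -0.53 and 0.03 in the first table and -0.08, -0.08 and -0.13 in the second. With the replicate number as a block, genes called were 1, 1847 and, for the interaction, 911, against 2127 without it, and the members called in the interaction were 1 in place of 5; H2-Aa, H2-Ab1, H2-Eb1 and Cd74 then had adjusted p of 0.104, 0.109, 0.0925 and 0.105. Limma gave Cd74 an adjusted p of 0.0532 in the interaction.

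Leaving out 1 library, genes called ranged between 1 and 49 (without p62F/F library 1) in p62Δhep against p62F/F, 1111 (without Tsc1/p62Δhep library 1) and 5825 (without Tsc1Δhep library 3) in Tsc1/p62Δhep against Tsc1Δhep, and 1169 and 4952 for the interaction. Members called ranged between 3 (without Tsc1/p62Δhep library 2) and 6 in Tsc1/p62Δhep against Tsc1Δhep and between 1 and 6 for the interaction. Directions turned for Tap1, between -0.14 and 0.36 in Tsc1/p62Δhep against Tsc1Δhep and between -0.10 and 0.40 for the interaction. In p62Δhep against p62F/F, ranges were -0.079 to 0.11 for H2-D1, -0.16 to 0.11 for Tap1, -0.14 to 0.057 for Psmb8, -0.28 to 0.070 for Psmb9, -0.60 to 0.041 for H2-Aa and -0.60 to 0.026 for H2-Ab1. The cause was not tested. With 3 libraries a group, changes the size of those of the class I chains are near the spread between libraries.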
